A study of Homo sapiens with 4 samples.

Results

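The genes described are 4 APOBEC3 cytidine deaminases, APOBEC3B, APOBEC3C, APOBEC3F and APOBEC3G, among 19775 genes that have at least 1 probe set naming them alone. They were selected on their signals on these same arrays, so their values are given as a description and without a test. Their 6 probe sets, the groups of short oligonucleotides that report 1 transcript, are all accounted for. RNA came from Panc1, an established human pancreatic cancer cell line, and each of 4 Affymetrix arrays held 1 condition: untreated cells (Untreated), cells given romidepsin (Rom), cells given tamoxifen (Tam) and cells given both drugs (Combo), for 24 hours. Romidepsin inhibits histone deacetylases and tamoxifen modulates the estrogen receptor; the labels used here name no dose. With 1 array per condition there is no replicate error and no p-value, every fold describes a pair of arrays, and a difference between cultures cannot be told apart from an effect of a drug.

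APOBEC3 enzymes remove the amino group from cytosine in single-stranded DNA and so leave uracil behind. They restrict retroviruses and mobile elements, and they lie side by side in a gene cluster on chromosome 22. APOBEC3B is the mainly nuclear member and is studied as a source of mutations in tumours; its transcription is known to follow the cell cycle through E2F and DREAM complexes and to respond to non-canonical NF-kappaB signalling. APOBEC3F and APOBEC3G are best known for blocking HIV that lacks the Vif protein, and APOBEC3G is abundant in lymphocytes.

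APOBEC3B and APOBEC3C were lower on the romidepsin array than on the untreated array and lower again on the combination array, while APOBEC3F and APOBEC3G lay at or near the floor of the measurement. In bulk RNA fewer cells of a type and less RNA per cell cannot be told apart. Signals are MAS5 intensities on a linear scale, and the floor is the median of all signals of non-control probe sets, 66.4; lower signals were set to it before log2 was taken. To count as measured, a gene had to lie above the floor on at least 1 of the 2 arrays compared, and it is said to rise or fall where they differed by at least 2-fold. A fold against an array at the floor is a lower bound.

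APOBEC3B, read by a single _s_at probe set, had a signal of 3709 in untreated cells, 1781 with romidepsin, 1902 with tamoxifen and 421 with the combination. The untreated array was the highest, both single-drug arrays were close to each other, and the combination array was the lowest. It fell 2.08-fold with romidepsin (log2 fold -1.06) and was 1.95-fold lower with tamoxifen (log2 fold -0.96), just short of the 2-fold limit. With the combination it fell 8.81-fold against untreated cells (log2 fold -3.14), to 11.4% of the untreated signal. It also fell 4.23-fold against romidepsin alone (log2 fold -2.08) and 4.52-fold against tamoxifen alone (log2 fold -2.18).

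APOBEC3C, a small member of the family read by a single _x_at probe set, had a signal of 566 in untreated cells, 259 with romidepsin, 439 with tamoxifen and 162 with the combination. The arrays came in the order untreated, tamoxifen, romidepsin, combination. It fell 2.19-fold with romidepsin (log2 fold -1.13) and 3.50-fold with the combination (log2 fold -1.81). Tamoxifen alone left it 1.29-fold below the untreated signal (log2 fold -0.37), a difference of -0.01 when arrays were scaled to spike-in controls. The combination was 1.60-fold below romidepsin (log2 fold -0.68, and -0.37 with spike-in scaling) and 2.72-fold below tamoxifen (log2 fold -1.44), so that only the comparison with tamoxifen, of these 2, passed the limit. With the floor at the 75th percentile of signals all 3 of its calls were lost, at log2 folds of -0.47 with romidepsin, -0.47 with the combination and -0.11 for the combination over tamoxifen.

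APOBEC3F had a signal of 76.5 in untreated cells, 75.7 with romidepsin, 72.0 with tamoxifen and 69.8 with the combination on its brighter probe set, an _x_at. All of these lie just above the floor, and from the untreated signal no fall beyond 1.15-fold could have been seen, so its flat profile says nothing about a fall; scaling the arrays to spike-in controls turned the tamoxifen and combination folds upward, to log2 folds of 0.27 and 0.16. Its other probe set was below the floor on all arrays, with signals between 5.98 and 56.2.

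APOBEC3G had a signal of 48.8 in untreated cells, 73.1 with romidepsin, 108 with tamoxifen and 47.6 with the combination on its brighter probe set. The untreated and combination arrays were below the floor, and the tamoxifen array was the highest, at least 1.63-fold above untreated cells and above the combination. With the floor at the 25th percentile both differences passed 2-fold, at log2 folds of 1.15 over untreated cells and -1.19 for the combination over tamoxifen. Its other probe set was below the floor on all arrays, with signals between 5.36 and 14.7. In both APOBEC3F and APOBEC3G the signals are too low for an order of the arrays to be read with any confidence.

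**Figure D1:**
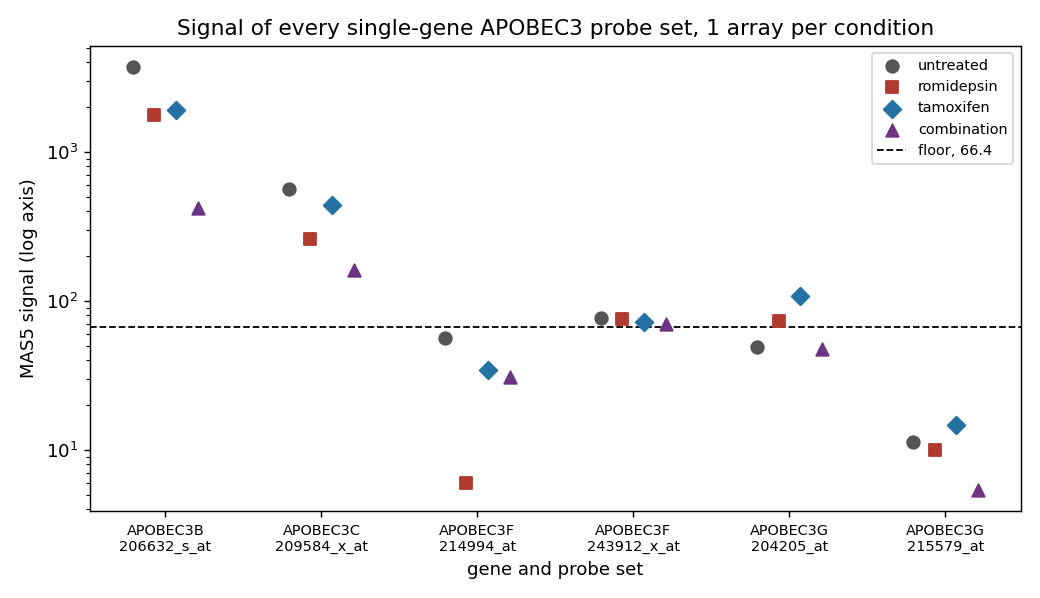
MAS5 signal (vertical log axis) of the 6 single-gene probe sets of APOBEC3B, APOBEC3C, APOBEC3F and APOBEC3G, with 1 point per array and the floor of 66.4 as a dashed line. APOBEC3B spans 3709 to 421 and APOBEC3C 566 to 162, while the probe sets of APOBEC3F and APOBEC3G lie around or below the floor.

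Counted over the 4 genes, 2 fell with romidepsin and 0 rose, against 9.27% of 13619 measured genes that fell and 14.3% that rose. With tamoxifen 0 of 4 fell or rose, against 1.07% of 13051 that fell and 3.7% that rose. With the combination against untreated cells 2 of 3 measured members fell, APOBEC3G being unmeasured there, against 14.4% of 13802 that fell and 19.8% that rose. Only APOBEC3B fell in the combination against romidepsin, where 2.27% of 13726 genes fell and 4.07% rose. Against tamoxifen APOBEC3B and APOBEC3C fell, where 11.8% of 13893 genes fell and 14.8% rose. Because the members were selected with these arrays in view, the counts are set beside the background and nothing is read from their excess. The number of genes that fell more than APOBEC3B was 1124 with romidepsin, 178 with tamoxifen and 79 with the combination over untreated cells, and 9 and 256 with the combination over romidepsin and over tamoxifen. The 3 comparisons with the combination share its array, and the 3 with untreated cells share theirs.

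The background itself moved with the scaling of the arrays. Of all calls, 60.7% were upward with romidepsin, 77.5% with tamoxifen and 57.9% with the combination over untreated cells, and 64.2% with the combination over romidepsin. With arrays centred on their medians these shares were 47.4%, 48%, 41.2% and 46.4%. With arrays scaled to the spike-in controls they were 58.8%, 98.3%, 72.8% and 93.7%, and quantile normalization gave 63.5% for tamoxifen. The median log2 fold of all measured genes was 0.01 with tamoxifen and 0.09 with the combination as deposited, 0.33 and 0.34 when scaled to spike-in controls, and -0.13 and -0.17 when centred.

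The combination can also be set against the sum of both drugs. If both single-drug folds of APOBEC3B multiplied, the combination would have a signal of 913 (log2 fold -2.02); the measured signal was 421, a departure of -1.12 on the log2 scale. For APOBEC3C the product of the folds gives 201 against a measured 162, a departure of -0.31. Among 11058 genes above the floor on all arrays the median departure was -0.04, with quartiles of -0.30 and 0.19, and 2.23% departed by 2-fold or more downward. APOBEC3B lay among that 2.23% and APOBEC3C just beyond the lower quartile. This departure uses all 4 arrays once each and has no error estimate.

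**Figure D2:**
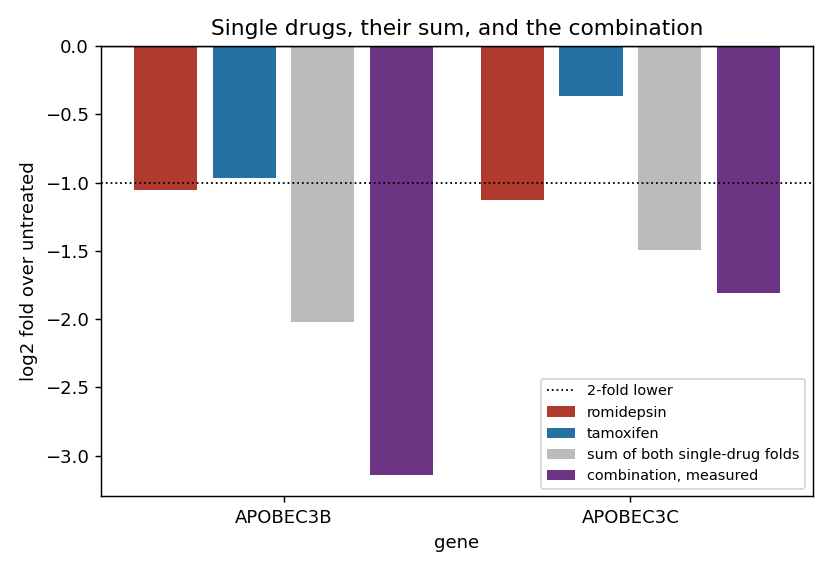
Log2 fold over untreated cells (vertical axis) of APOBEC3B and APOBEC3C with romidepsin, with tamoxifen, as the sum of both single-drug log2 folds, and as measured with the combination; the dotted line marks a 2-fold fall. The measured APOBEC3B bar, -3.14, reaches below the sum, -2.02, by more than that of APOBEC3C, -1.81 against -1.50.

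As a yardstick of technical spread, the log2 folds of 2 probe sets of 1 gene differed by a median of 0.25 in the romidepsin comparison, 0.22 in the tamoxifen comparison and 0.29 in the combination comparison with untreated cells. The log2 folds of APOBEC3B in these comparisons were larger than that. Those of APOBEC3C were too, but its tamoxifen fold was only -0.37, and -0.01 when arrays were scaled to spike-in controls. Both genes were selected on these same arrays, so nothing is read from their folds being larger. This spread leaves out variation between cultures, and APOBEC3B and APOBEC3C each have a single probe set, so their own folds were not seen by another one. Suffixes _s_at and _x_at mark probe sets whose oligonucleotides can also match other transcripts, which matters in a family of close relatives. With only unsuffixed probe sets, APOBEC3B and APOBEC3C could not be measured, and APOBEC3F lay below the floor on all arrays. A further 2 probe sets are annotated to APOBEC3 genes together with another gene and were not used.

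The arrays differed in some quality measures. The 3′ over 5′ ratio of actin, which goes up as RNA is degraded, was 1.73 on the combination array and 1.18 to 1.39 on the others, while the same ratio of GAPDH was 1.03 to 1.07 on all 4. Spike-in controls were lowest on the tamoxifen array, at 0.781 times the untreated level, followed by the combination array at 0.819 and the romidepsin array at 1.01. The part of these in the members' folds was not tested. Scaling the arrays to the spike-in controls left APOBEC3B at -2.85 for the combination over untreated cells and at -0.61 for tamoxifen; centring them on their medians gave -3.43 and -1.11, which takes the tamoxifen fold past 2-fold.

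Genes whose profile over the 4 arrays was most like that of APOBEC3B were looked for next. Likeness was the root mean square difference of log2 signal after each gene was centred on its own mean over the 4 arrays, among 11055 genes above the floor on all arrays. The nearest were SPC24, a subunit of the NDC80 kinetochore complex, at 0.184, CDC20, which activates the anaphase-promoting ubiquitin ligase, at 0.185, and BIRC5, which encodes survivin, at 0.209. SPC24 had a signal of 735 in untreated cells, 411 with romidepsin, 476 with tamoxifen and 119 with the combination. CDC20 went from 12955 in untreated cells to 5297, 6489 and 1066, and BIRC5 from 10418 to 3948, 6205 and 1033. All of them had, like APOBEC3B, a combination array far below both single-drug arrays. They were picked for likeness to it on these same arrays, so this follows from the choice and is no separate result.

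APOBEC3C had other neighbours in profile, and much closer ones: CACNG8, an auxiliary calcium channel subunit, at 0.017, P3H2, a collagen prolyl hydroxylase, at 0.019, and TPM4, a tropomyosin, at 0.023. P3H2 had a signal of 6105 in untreated cells, 2741 with romidepsin, 4708 with tamoxifen and 1686 with the combination. TPM4 followed the same order, with signals of 1905, 842, 1480 and 528. For APOBEC3F the nearest were RPL35A, JADE3 and OXLD1, and for APOBEC3G MAP7, SPRR1A and MFSD6, but both of these members lie at or near the floor. With 4 points per gene, and many genes to choose from, close matches are easily found, and likeness is a description only.

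**Figure D3:**
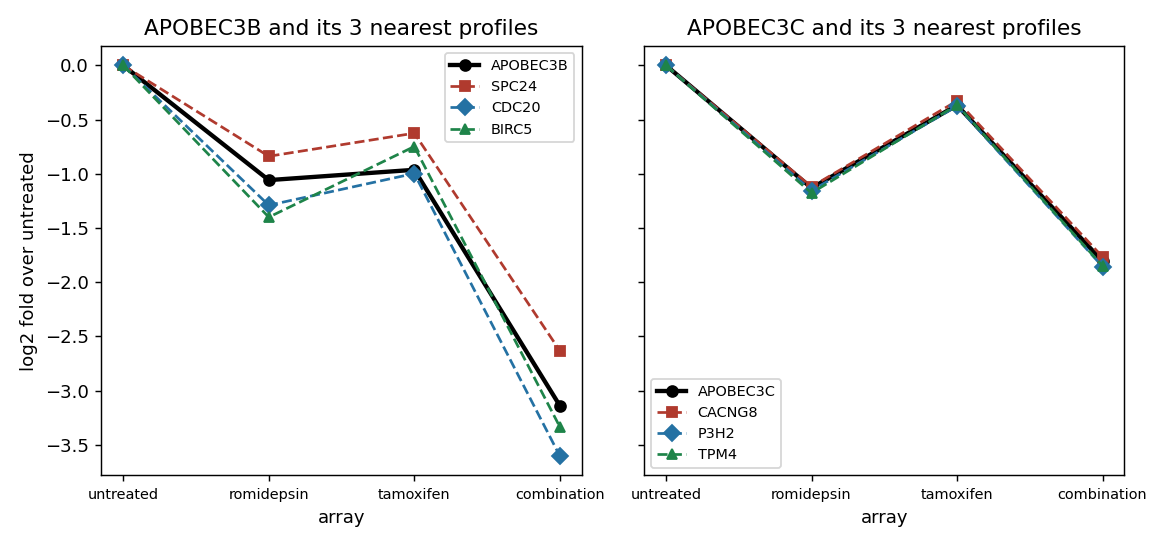
Log2 fold over untreated cells (vertical axis) on each array (horizontal axis) for APOBEC3B and APOBEC3C, in black, and the 3 genes with the most similar profile to each, dashed; lines join arrays to guide the eye and stand for no trend. APOBEC3B, SPC24, CDC20 and BIRC5 end between -2.63 and -3.60 on the combination array, and APOBEC3C and its matches between -1.77 and -1.86.

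Of the other APOBEC genes, 3 had a probe set of their own. APOBEC3D, the double-domain relative between APOBEC3C and APOBEC3F in the cluster, had a signal of 86.3 in untreated cells, 112 with romidepsin, 69.1 with tamoxifen and 74.1 with the combination. All of these lie less than 2-fold above the floor of 66.4. A 2-fold fall of APOBEC3D could therefore not have been seen, and that it stayed within 2-fold says nothing about such a fall. APOBEC1, which edits apolipoprotein B mRNA, and APOBEC4 were below the floor on all arrays. For APOBEC2, APOBEC3A and APOBEC3H no single-gene probe set was found, and they were not analysed here.

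The genes on either side of the cluster were taken as its surroundings. Of the 10 protein-coding genes on each side, 18 had a probe set. With romidepsin 2 of 17 fell and 0 rose, and their median log2 fold was -0.19. With the combination 3 of 17 fell and 0 rose, with a median of -0.56, against a median of 0.06 for romidepsin and 0.09 for the combination over all measured genes. With tamoxifen 0 of 18 fell or rose, with a median of -0.30 against 0.01 over all genes. Over all measured genes 9.27% fell and 14.3% rose with romidepsin, and 1.07% fell and 3.7% rose with tamoxifen. With the combination 14.4% of them fell and 19.8% rose. CBX6, the Polycomb reader next to the cluster on the APOBEC3A side, went from 4142 in untreated cells to 1876 with romidepsin, 2802 with tamoxifen and 1640 with the combination. CBX7, its relative on the APOBEC3H side, stayed within 2-fold, at 711, 686, 658 and 507. The next gene, PDGFB, which encodes a platelet-derived growth factor chain, went from 883 to 392, 681 and 160, 5.51-fold lower with the combination, and TOMM22, a subunit of the mitochondrial import pore, from 8205 to 4135, 5112 and 2960. RPS19BP1, at the outer end of the interval, stayed within 2-fold, from 4478 to 2289 with the combination.

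**Figure D4:**
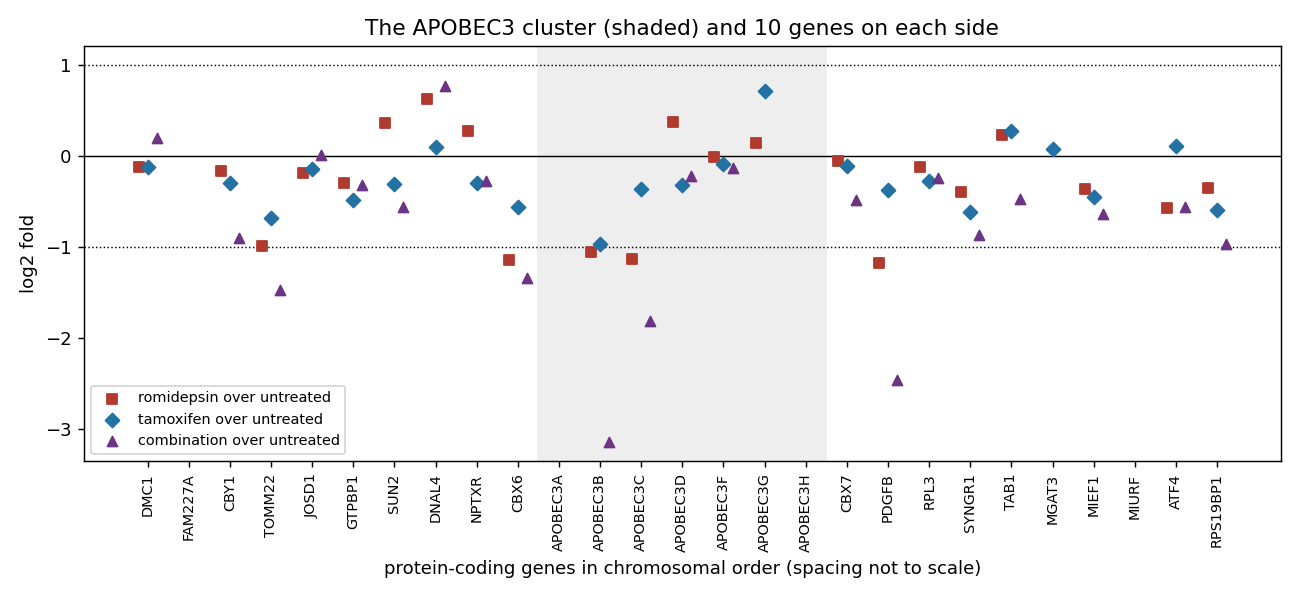
Log2 fold over untreated cells (vertical axis) with romidepsin, tamoxifen and the combination for the protein-coding genes in chromosomal order, spacing not to scale, with the APOBEC3 cluster shaded; dotted lines mark 2-fold, and genes without points were unmeasured or have no probe set of their own. Inside the cluster APOBEC3B reaches -3.14 and APOBEC3C -1.81 with the combination, and the largest fall outside it is that of PDGFB, at -2.46.

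Regulators of APOBEC3B transcription were described as 2 lists. For these and the lists that follow, the shares over all measured genes serve as background. With romidepsin 9.27% fell and 14.3% rose, and with tamoxifen 1.07% fell and 3.7% rose. With the combination 14.4% fell and 19.8% rose. The medians over all measured genes were 0.06, 0.01 and 0.09. Counts near these shares are not read as a result. Of 20 genes of the E2F, RB and DREAM list, all above the floor on all arrays, 10 fell with romidepsin and 0 rose, the median log2 fold being -0.98. With tamoxifen 0 fell or rose and the median was -0.12, and with the combination 9 fell and 3 rose, with a median of -0.81. MYBL2, the MYB protein of the mitotic MuvB complex, had a signal of 2715 in untreated cells, 847 with romidepsin, 1367 with tamoxifen and 317 with the combination. Its combination fold was 8.58, near the 8.81 of APOBEC3B, and it was also lower than with romidepsin alone, by 2.68-fold. MYBL2 was the only 1 of the 20 to fall in the combination over romidepsin, where 0 rose and the list median was -0.09. The 3 genes that rose with the combination over untreated cells were RB1, TFDP2 and LIN54, at log2 folds of 1.15, 1.24 and 1.10. FOXM1 fell with romidepsin (log2 fold -2.48) and with the combination (-3.32), but between romidepsin and the combination it differed by -0.84 on the log2 scale, against -2.08 for APOBEC3B. The repressor E2F8 had a log2 fold of -2.10 with romidepsin and -1.78 with the combination, and the activator E2F2 -1.28 and -1.86.

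In the list of NF-kappaB and protein kinase C genes, 15 of 16 had a probe set. With romidepsin 2 of 15 fell and 0 rose, with a median of -0.14. With the combination 2 fell and 1 rose, with a median of -0.48. With tamoxifen 3 fell and 0 rose, with a median of -0.31. These 3 were MAP3K14, NFKBIA and PRKCD, at log2 folds of -1.07, -1.04 and -1.01, all just past the 2-fold limit. Scaling the arrays to spike-in controls moved the list median for tamoxifen to 0.05. Over all genes 27 then fell with tamoxifen, against 140 as deposited, so nothing is read from the count of 3. MAP3K14, the NIK kinase that starts the non-canonical pathway, went from 1599 in untreated cells to 1066 with romidepsin, 761 with tamoxifen and 835 with the combination. TRAF3, which restrains NIK, went from 1673 to 651, 1354 and 399, and NFKB1, the p105 precursor, from 964 to 350, 806 and 246. CHUK, the kinase IKK-alpha, rose, from 929 to 1611, 1440 and 2278, passing 2-fold with the combination only.

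The uracil that APOBEC3 enzymes leave can be removed by base excision or copied past by translesion synthesis. The list for these steps holds glycosylases and later base excision genes, the translesion genes REV1, REV3L, MAD2L2 and RAD18, HMCES, which shields abasic sites, and DUT, which keeps dUTP low. All 18 of its genes were above the floor on all arrays. With romidepsin 3 fell and 0 rose, and the median log2 fold was -0.35; with tamoxifen 0 fell or rose, with a median of -0.30; with the combination 5 fell and 1 rose, with a median of -0.66. UNG, the main uracil glycosylase, had a signal of 5259 in untreated cells, 1522 with romidepsin, 2755 with tamoxifen and 1086 with the combination. The flap endonuclease FEN1 went from 4002 to 1565, 2859 and 1089, APEX1, which cuts the abasic site, from 7983 to 3790, 5296 and 2736, and the DNA ligase LIG1 from 1140 to 768, 897 and 400. In the combination over romidepsin 0 of 18 fell, where 2.27% of all measured genes fell. The list median there was -0.45, against -0.03 over all measured genes. UNG had a log2 fold of -0.49 and LIG1 of -0.94 in that comparison, against -2.08 for APOBEC3B.

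Among 14 other deaminases of RNA bases and nucleotides, 13 had a probe set, and the list went both ways. With romidepsin 3 of 12 measured fell and 2 rose, with a median of -0.37; with tamoxifen 0 of 11 fell or rose, with a median of -0.16; with the combination 4 of 13 fell and 2 rose, with a median of -0.57. CDA, the cytidine deaminase of pyrimidine salvage, went from 4429 in untreated cells to 1499 with romidepsin, 5120 with tamoxifen and 789 with the combination, and the AMP deaminase AMPD3 from 771 to 176, 987 and 175. ADARB1, an adenosine deaminase of double-stranded RNA, rose from 148 to 752 with romidepsin and 938 with the combination. GDA, the guanine deaminase, was below the floor in untreated cells and rose at least 3.78-fold with romidepsin and at least 4.66-fold with the combination.

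Several APOBEC3 genes respond to interferon, so interferon pathway and restriction factor genes were described beside them. Of 27 listed, 24 had a probe set. With romidepsin 3 of 21 rose and 3 fell, around a median of -0.23; with tamoxifen 0 of 20 rose or fell, with a median of -0.14; with the combination 2 of 21 rose and 3 fell, with a median of 0.01. SLFN11, a restriction factor that acts on tRNA, was below the floor in untreated cells and rose at least 6.18-fold with romidepsin and at least 6.45-fold with the combination. IRF7 rose from 523 to 2537 with romidepsin and 1852 with the combination. IFITM3, a membrane protein that blocks virus entry, fell from 2995 to 1247 and 637, and IFITM2 from 1576 to 702 and 361; both are read by _x_at probe sets.

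Of 7 binding partners and Vif ligase components, 0 fell or rose with romidepsin, with a median of -0.35; with tamoxifen 1 rose and 0 fell, with a median of -0.17; and with the combination 1 fell and 0 rose, with a median of -0.13. MOV10, an RNA helicase that binds APOBEC3G, went from 374 to 141 with the combination, and CUL5, the cullin that Vif recruits, from 1510 in untreated cells to 3295 with tamoxifen. ELOB and RNF7 stayed within 2-fold on all arrays, with untreated signals of 38319 and 6379. Among hormone receptors, PGR was below the floor on all arrays. ESR1, which encodes the estrogen receptor alpha, was below the floor in untreated cells, at 33.3, and with tamoxifen, at 48.1, and had a signal of 122 with romidepsin and 196 with the combination, at least 2.96-fold above untreated cells there. GPER1 was above the floor with tamoxifen only, at 124, and ESR2 had signals between 51.2 and 85.0.

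For these lists, the hormone receptors aside, and for the chromosomal neighbours the tamoxifen medians, from -0.31 to -0.12 as deposited, were all above 0 when arrays were scaled to spike-in controls, from 0.05 to 0.23, so no direction is given for tamoxifen. The lists were drawn up with earlier results of these arrays known and are not independent evidence of a direction.

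Markers of the labelled cell type were mixed. The list for this line holds duct and epithelial genes and VIM, a mesenchymal filament gene. Of its 9 genes with a probe set, 7 were above the floor in untreated cells, among them KRT8, KRT18 and VIM; KRT19 was below it on all arrays, and EPCAM in untreated cells only. The summed signal of the list was 81279 in untreated cells, 71082 with romidepsin, 62549 with tamoxifen and 44222 with the combination, of which VIM made up 38695 in untreated cells and 22486 with the combination. The genes did not move together. With the combination 4 fell, KRT7, KRT8, KRT18 and MUC1, and 2 rose, EPCAM at least 7.15-fold, to 475, and the cadherin CDH1 from 223 to 874. Of 13 leukocyte markers 1 was above the floor in untreated cells, 4 with romidepsin, 2 with tamoxifen and 5 with the combination; their summed signal was 515 in untreated cells, 941 with romidepsin, 586 with tamoxifen and 1192 with the combination. PTPRC, the marker of all leukocytes, was below the floor on all arrays, and CSF1R, with 485 of the combination sum, was the largest contributor. The endocrine markers INS and GCG were below the floor on all arrays. Of the acinar markers CPA1 was below it on all arrays, and CELA3A was above it on 3, at 132 in untreated cells, 79.8 with romidepsin and 89.2 with tamoxifen. Of the endothelial markers CDH5 was below it on all arrays, VWF was above it with romidepsin, at 98.3, and with the combination, at 73.6, and PECAM1 on all arrays, at 110 to 136. The part of these markers in the members' folds was not tested.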

How the data were processed

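Total RNA was isolated with TRI reagent and turned into biotinylated cRNA, per the labels' protocols. The deposited intensity of each probe set comes from MAS5 (named in the submitters' processing notes without a version), which weighs perfect-match against mismatch oligonucleotides. Trimming 2% at each end gives a mean of 500.1 on all 4 arrays, so the scaling takes the bulk of signal as equal.

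Of 54675 probe sets, 62 are controls and 41091 others name 1 gene in the platform annotation; symbols were checked against RefSeq (GRCh38.p14), which also gave the gene order. Where a gene had several probe sets, the one brightest on average (log2) stood for it, and all probe sets of the members are reported. From each list up to 4 genes with the largest fold against untreated cells were named, the other APOBEC genes, the nearest gene on each side of the cluster, and 3 genes of similar profile per member. Also named were the 3 genes of the E2F list that rose with the combination, and the 3 of the NF-kappaB list that fell with tamoxifen. The members and lists were chosen with earlier results of these data known. Promoter and protein sequences of the members were not used here. Alternatives changed the floor, the pseudocount, the scaling and the choice of probe set. The calculation of calls was checked on simulated folds. Python 3.11.15, numpy 2.4.6, pandas 2.3.3 and matplotlib 3.10.9 were used.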

Additional observations from a re-analysis of the deposited data

How the results depend on the processing

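No paired analysis was possible because each condition has 1 array, and no array could be left out. Over the alternatives that gave a value, of 9 tried, APOBEC3B kept its direction and its side of the 2-fold limit in every comparison, except for tamoxifen over untreated with arrays centred on their medians (-1.11). Its combination fold over untreated lay between -3.43 and -2.85, and its departure from the sum of the drugs between -1.25 and -1.05. Without _s_at, _x_at and _a_at probe sets APOBEC3B, APOBEC3C and APOBEC3F gave no value. APOBEC3C lost its calls with the floor at the 75th percentile, which lies within 2-fold of its untreated signal: -0.47 with romidepsin, -0.47 with the combination and -0.11 for the combination over tamoxifen. APOBEC3G passed 2-fold with the floor at the 25th percentile or with none, at 1.15 with tamoxifen and -1.19 for the combination over tamoxifen. APOBEC3F turned sign when scaled to spike-in controls, at 0.27 with tamoxifen, 0.16 with the combination and 0.19 for the combination over romidepsin.

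Counts over all genes moved more. Here higher and lower counts are given in that order, and a count not given stayed within 1.5 times. For romidepsin they were 3018 and 1901 with the 25th percentile floor, 800 and 832 with the 75th, and 3986 and 2844 with no floor. For tamoxifen they were 1471 and 749, 195 and 58, and 2568 and 1624 under the same settings, 737 and 305 with log2(signal + 32), 293 and 317 after median centring, and 1526 and 27 after spike-in scaling. For the combination over untreated 1423 were higher with the 75th percentile floor, and 4944 and 3334 were counted with no floor. Over romidepsin they were 1254 and 828, 266 and 131, and 2257 and 1585 for the floors as above, 1324 and 89 when scaled to spike-in controls, and 205 lower with unsuffixed probe sets only. Over tamoxifen 3079 were higher with the 25th percentile floor, 971 and 1043 were counted with the 75th, and 3910 and 3207 with none. Of the list medians, 291 of 322 alternative values kept their sign and side of 2-fold, 29 changed sign below 2-fold and 2, both of the E2F list, passed it.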
